A study of Homo sapiens with 6 samples.

Results

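The 40 genes described here encode the chaperones, disulfide isomerases, degradation factors and stress sensors of the endoplasmic reticulum (ER). They were taken from a fixed list of gene symbols, and all 40 were found among the 58051 genes of the deposited expression table. The RNA came from cells labelled NTera-2 (NT2), a line established from a testicular embryonal carcinoma. RNA-seq was done on 3 libraries from cells given mimics of piR-36249, a piRNA (a class of small RNA known mainly from the germ line), and on 3 libraries from cells given a scramble control. The genotype label of the first group says knockdown, whereas its title and its treatment label say mimics. Groups here follow the titles, and every change is mimic minus scramble. Whether the 3 libraries of a group stem from different cultures is not stated, and the p-values therefore reflect only how far these libraries scatter, which may be technical.

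Levels are the deposited FPKM, a unit of read counts scaled by exon length and library size. How the authors computed it is not given. A mean is followed by its SD (n = 3). Depth was 48.0 to 58.6 M reads in the mimic libraries and 52.8 to 62.7 M reads in the scramble libraries, as worked back from the FPKM steps. Changes were tested with limma on log2(FPKM + 1) across the 12912 genes that averaged 0.5 FPKM or more, and a gene is said to rise or fall where the p-value adjusted over all of them (Benjamini-Hochberg) was under 0.05. Of 10 genes taken here as markers of embryonal carcinoma cells, 8 stayed under 0.5 FPKM in every library. Of these 8, NANOG, SOX2, TDGF1, L1TD1 and SALL4 were listed at 0 in all libraries. PODXL and DNMT3B, the other 2 of the 10, both rose. PODXL was at 323 ± 22.5 FPKM with mimic and 270.2 ± 22.5 with scramble. DNMT3B was at 5.15 ± 0.0821 FPKM with mimic and 3.13 ± 0.283 with scramble. Of 10 genes that mark endothelial cells, 7 were above 1 FPKM in every library. Their summed level was 686 to 748 FPKM with mimic and 574 to 616 FPKM with scramble. Of the 10, 6 rose, where 18.7% of all tested genes rose. CLDN5, KDR and VWF did not exceed 0.525 FPKM in any library, lay under the filter and were not tested. The part of these cell identity genes in the results below was not tested. In bulk RNA, fewer cells of a type and less RNA per cell cannot be told apart.

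The ER folds proteins bound for the cell surface, for secretion and for the organelles of the secretory pathway. HSPA5 (also called BiP) and its J-domain partners hold unfolded chains, the lectins CANX and CALR hold glycoproteins, and disulfide isomerases form and reshuffle disulfide bonds. Proteins that fail are sent to the cytosol for degradation, and the sensors ERN1, ATF6 and EIF2AK3 raise the supply of folding factors when unfolded proteins accumulate. ERP29 has the fold of a disulfide isomerase but lacks the active-site cysteine pair of the family.

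Of the 40 genes 38 could be tested: 15 rose, 5 fell and 18 did not pass. Of the 38, 39.5% rose and 13.2% fell; among all tested genes 18.7% rose and 16.8% fell, 35.5% in all. Genes with high values pass more readily, so the 31 members that averaged 5 FPKM or more were also set beside all genes of that level: 12 rose and 4 fell, where 23.1% of such genes rose and 22.1% fell, 45.3% in all. The median log2 fold change of the 38 was 0.09, against 0.00 over all tested genes. Most rises were small. The median of the 15 was 0.24 on the log2 scale, and only PDIA5 and HSPA5 exceeded 0.5. The falls were fewer, and ERP29 and UGGT1 were the 2 members that fell by more than 0.5. ERO1B, an oxidase, and DERL3, a degradation factor, lay under the filter of 0.5 FPKM and were not tested, at 0.128 FPKM at most in any library.

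**Figure D1:**
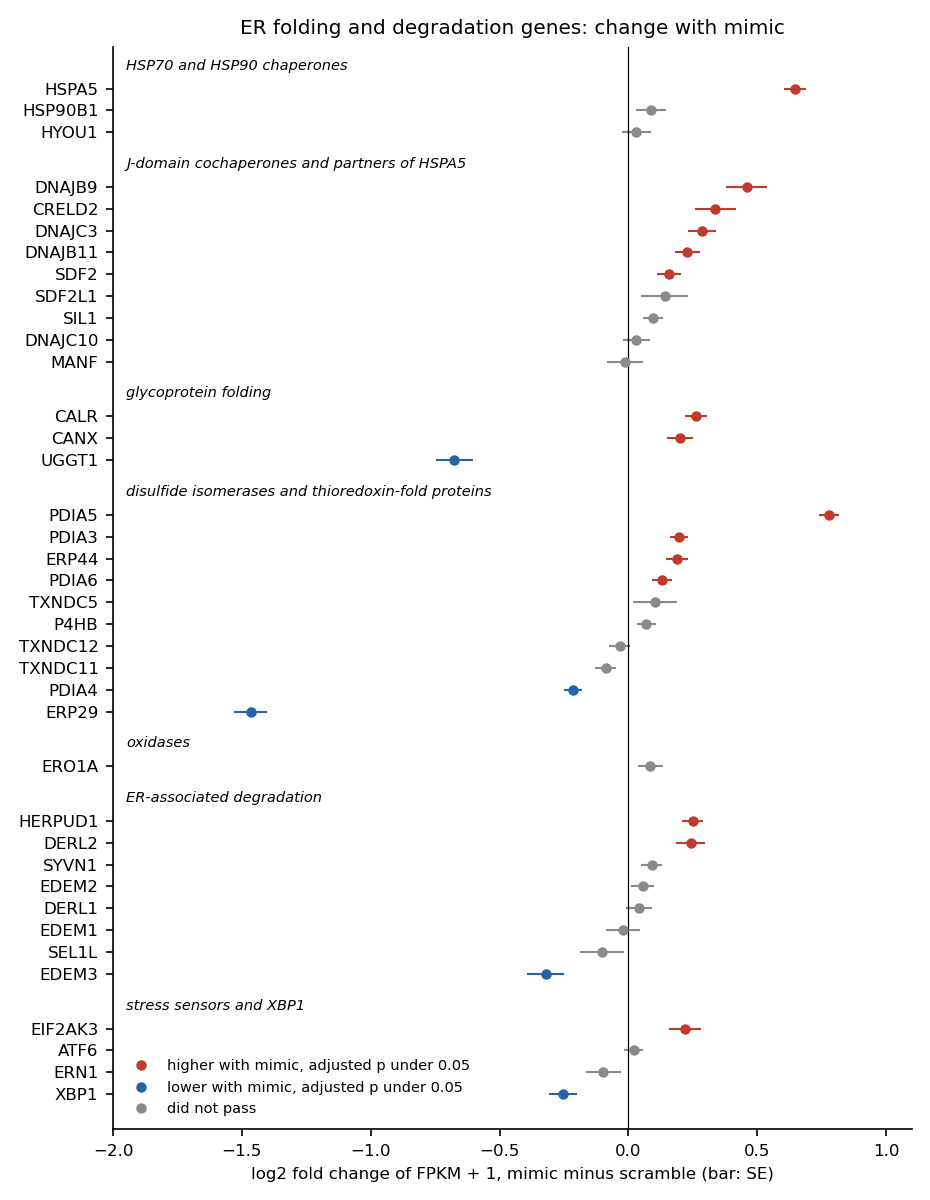
Log2 fold change (mimic minus scramble, horizontal axis) of the 38 tested genes, ordered by role, with bars of 1 SE; red points rose, blue points fell and grey points did not pass. ERP29 lies farthest to the left at -1.47, and PDIA5 (0.78) and HSPA5 (0.65) lie farthest to the right.

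HSPA5 is the HSP70 chaperone of the ER and in resting cells also keeps the stress sensors inactive. Its gene (ENSG00000044574, chromosome 9, 125234853 to 125241330, minus strand, GRCh38) had 595, 575 and 559 FPKM with mimic, against 376, 369.7 and 358 FPKM with scramble. Every mimic library lay above every scramble library. The means were 576 ± 17.9 with mimic and 368 ± 8.95 with scramble, a ratio of 1.57 and a log2 fold change of 0.65 (SE 0.043, adjusted p = 5e-05). By level it ranked 40 among all genes with mimic and 72 with scramble. The other large chaperones did not pass: HSP90B1, the HSP90 of the ER, measured 99.5 ± 7.72 FPKM with mimic and 93.4 ± 0.746 with scramble (adjusted p = 0.27). HYOU1, a large HSP70 relative that exchanges nucleotide on HSPA5, measured 44.6 ± 2.27 FPKM with mimic and 43.6 ± 2.65 with scramble (adjusted p = 0.71).

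ERP29, an escort of secretory proteins, went the other way. Its gene (ENSG00000089248, chromosome 12, 112013316 to 112023451, plus strand) had 16.6, 18.1 and 15.3 FPKM with mimic, against 45.7, 49.2 and 48.4 FPKM with scramble. The groups stood far apart, the highest mimic library lying below the lowest scramble library by more than the whole spread of either group. The mean of 16.7 ± 1.41 with mimic was 0.349 of the 47.8 ± 1.79 with scramble (log2 fold change -1.47, SE 0.062, adjusted p = 1e-05). It was the only one of the 40 in the authors' deposited table, a list of 401 genes that all changed by 1 or more on the log2 scale, where it stood at -1.53. Of genes above 0 in any library 1.32% are on that list. An antisense gene that overlaps ERP29 had 0.129 FPKM with mimic and 0.16 with scramble, and the pseudogene ERP29P1 0.135 FPKM at most.

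The ratio of HSPA5 to ERP29 sets these opposite changes side by side within each library. It was 35.7, 31.8 and 36.6 with mimic, against 8.22, 7.52 and 7.41 with scramble, and the groups did not overlap. On the log2 scale of FPKM + 1 the ratio averaged 5.03 ± 0.10 with mimic and 2.92 ± 0.08 with scramble, a difference of 2.11. The exact two-sided permutation p was 0.1, which is as low as 3 libraries against 3 can reach. Both genes were chosen with their changes known, so the difference is a description.

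**Figure D2:**
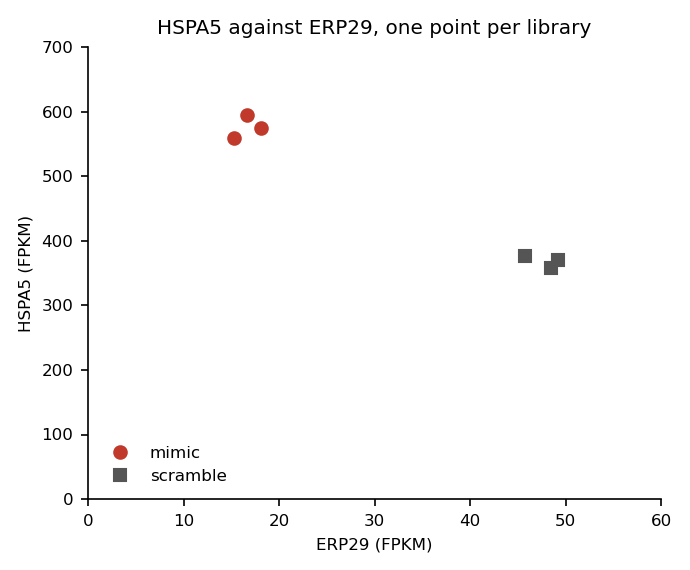
HSPA5 (vertical axis, FPKM) against ERP29 (horizontal axis, FPKM), 1 point per library, circles for mimic and squares for scramble. The mimic libraries lie at the upper left, near 576 and 16.7 FPKM, and the scramble libraries at the lower right, near 368 and 47.8 FPKM.

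Sequence upstream of these genes was read from RefSeq on GRCh38.p14, from 250 bases before to 50 bases after each annotated start, for the 37 members in that table. The ER stress response element (ERSE) was defined on promoters of chaperone genes such as HSPA5, so its presence among the members is background. It was searched on both strands as CCAAT and CCACG with 9 free bases between them, and found in 8 of the 37 genes (21.6%), against 25 of all 27305 genes in the table (0.0916%); by window it is held by 0.0769% of 35116. The windows of HSPA5 and CALR, which hold a match and whose genes rose, are shown beside those of PDIA5 and ERP29, the members with the largest rise and the largest fall, which hold none. Capitals mark the ERSE match, and all 4 run 5′ to 3′ on the strand of the gene.
HSPA5, chr9:125241294-125241593, minus strand: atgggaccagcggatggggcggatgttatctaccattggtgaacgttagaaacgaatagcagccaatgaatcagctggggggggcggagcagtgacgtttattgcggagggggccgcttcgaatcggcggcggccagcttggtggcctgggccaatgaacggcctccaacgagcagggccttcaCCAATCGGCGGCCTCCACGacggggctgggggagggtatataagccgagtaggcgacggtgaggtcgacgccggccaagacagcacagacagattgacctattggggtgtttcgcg
CALR, chr19:12938359-12938658, plus strand: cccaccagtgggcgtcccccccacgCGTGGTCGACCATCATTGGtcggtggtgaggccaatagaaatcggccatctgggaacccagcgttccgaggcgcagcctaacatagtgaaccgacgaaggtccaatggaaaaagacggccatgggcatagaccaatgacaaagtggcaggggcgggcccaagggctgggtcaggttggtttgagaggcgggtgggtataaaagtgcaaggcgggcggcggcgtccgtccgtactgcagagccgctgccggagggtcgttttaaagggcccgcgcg
PDIA5, chr3:123066775-123067074, plus strand: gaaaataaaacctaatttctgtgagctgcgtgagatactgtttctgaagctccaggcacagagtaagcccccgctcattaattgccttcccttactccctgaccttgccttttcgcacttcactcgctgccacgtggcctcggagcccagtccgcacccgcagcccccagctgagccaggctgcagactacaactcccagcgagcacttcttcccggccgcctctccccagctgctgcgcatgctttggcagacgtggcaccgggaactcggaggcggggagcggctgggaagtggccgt
ERP29, chr12:112013176-112013475, plus strand: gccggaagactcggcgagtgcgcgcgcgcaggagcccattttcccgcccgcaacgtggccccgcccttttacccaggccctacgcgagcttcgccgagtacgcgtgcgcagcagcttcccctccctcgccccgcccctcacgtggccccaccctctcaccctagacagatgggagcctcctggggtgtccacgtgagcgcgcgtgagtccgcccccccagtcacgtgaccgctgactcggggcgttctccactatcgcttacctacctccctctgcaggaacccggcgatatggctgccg

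Calls differed among the members with an ERSE. HSPA5, CALR, CANX, CRELD2 and PDIA6 rose, HSP90B1 did not pass, XBP1 fell and ERO1B was not tested. Of all tested genes 18.7% rose and 16.8% fell, and of the tested members 39.5% rose and 13.2% fell. The calls of CANX, CRELD2 and PDIA6 were lost when certain single libraries were left out. The matches of the tested genes are shown for comparison, with the fixed ends of the element in capitals and the spacer in lower case. Those of CALR and CRELD2 run in the reverse direction, HSP90B1 has a second match in that direction, and the CANX match falls in several windows of that gene.
HSPA5, chr9:125241391-125241409: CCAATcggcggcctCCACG
CALR, chr19:12938384-12938402: CGTGGtcgaccatcATTGG
CANX, chr5:179698778-179698796: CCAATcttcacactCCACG
CRELD2, chr22:49918554-49918572: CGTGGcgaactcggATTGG
PDIA6, chr2:10812853-10812871: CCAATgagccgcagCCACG
HSP90B1, chr12:103930216-103930234: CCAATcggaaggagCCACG
XBP1, chr22:28800603-28800621: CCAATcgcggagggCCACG

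Other elements were searched the same way. ERSE-II, spelled ATTGG and CCACG with 1 free base between them, was found in HERPUD1, which rose, and in HYOU1 and SDF2L1, which did not pass; 0.0541% of all windows hold it. The motif TGACGTG, known as UPRE, was found in DNAJC10, HYOU1, TXNDC11 and TXNDC5, none of which passed, and in 1.97% of all windows. In HYOU1 it overlaps an ERSE-II match. The ATF4-type element TTNCATCA was found in HERPUD1 and in 3.62% of all windows. These matches are letters in a window, not shown sites, and windows without one say nothing about a factor.

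Around HSPA5, 9 genes were grouped as its cochaperones and partners, with CRELD2 placed among them. Of the 9, 5 rose and none fell, where 18.7% of all tested genes rose and 16.8% fell. Among so few genes the absence of a fall says little. DNAJB9, a J-domain protein that also restrains the sensor ERN1, had 5.60, 5.95 and 4.70 FPKM with mimic, against 3.88, 3.48 and 3.62 FPKM with scramble. Its groups did not overlap, although the third mimic library stood lower than the other two (log2 fold change 0.46, SE 0.079, adjusted p = 0.0036). CRELD2, a stress-induced secreted protein, had 6.98, 5.89 and 6.91 FPKM with mimic, against 4.56, 4.97 and 5.51 FPKM with scramble. The second mimic library lay close to the highest scramble library, and the rise of 0.34 (SE 0.080, adjusted p = 0.014) did not pass without mimic replicate 3 (adjusted p = 0.053). DNAJC3, which also inhibits the kinase EIF2AK3, had 5.50, 5.47 and 4.96 FPKM with mimic, against 4.32, 4.16 and 4.05 FPKM with scramble, again with no overlap (log2 fold change 0.28, SE 0.054, adjusted p = 0.0053).

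The remaining partners moved little. DNAJB11, the J-domain protein that hands clients to HSPA5, rose by 0.23 (adjusted p = 0.0085), and SDF2, which binds it, by 0.16 (adjusted p = 0.036). DNAJB11 shares exon positions with TBCCD1 on the opposite strand, which was at 10.4 ± 0.265 FPKM with mimic and 6.64 ± 0.51 with scramble (log2 fold change 0.57), and the use of strand is unknown, so the value of DNAJB11 is uncertain. SDF2 no longer passed when either of mimic replicates 2 and 3, or either of scramble replicates 1 and 2, was left out. SIL1, a nucleotide exchange factor of HSPA5, was at 14.9 ± 0.142 FPKM with mimic and 13.9 ± 0.371 with scramble, with no overlap but adjusted p = 0.092. SDF2L1 (0.14), DNAJC10 (0.03) and MANF (-0.01) overlapped between the groups and did not pass. Over all 38 tested genes 18 had every mimic library above every scramble library and 6 had every one below, where 26% and 23.2% of all tested genes did.

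**Figure D3:**
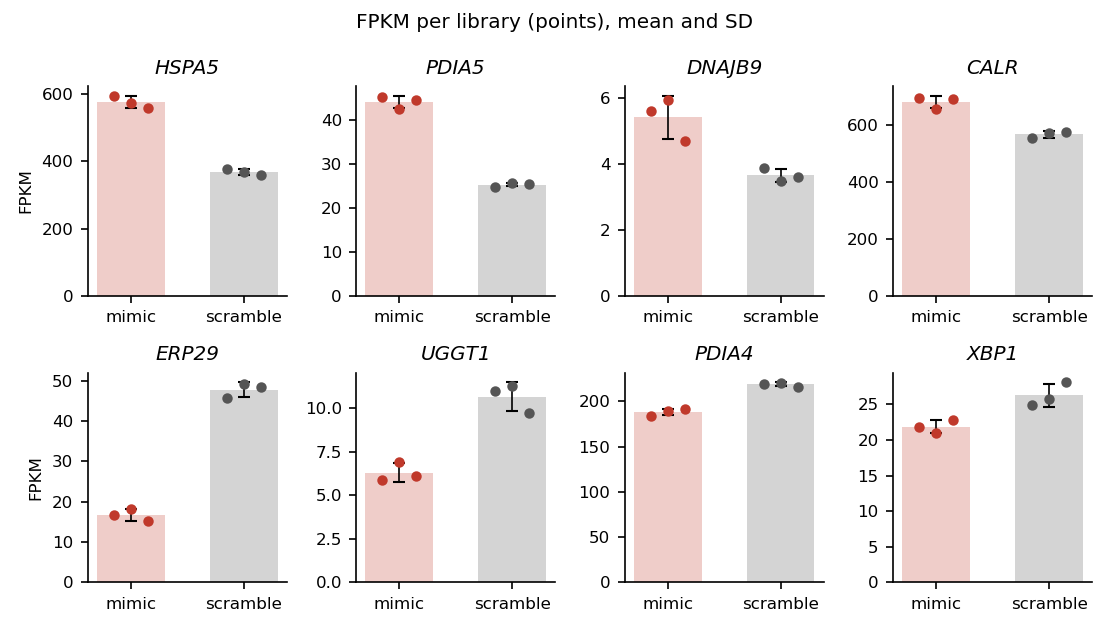
FPKM (vertical axis, from 0) of 8 genes in each library (points), with group means (bars) and SD (whiskers), mimic in red at left and scramble in grey at right. HSPA5, PDIA5, DNAJB9 and CALR in the upper row are higher with mimic, and ERP29, UGGT1, PDIA4 and XBP1 in the lower row are lower, with no overlap in any panel.

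In glycoprotein folding the lectin chaperones and the enzyme that feeds them moved apart. CALR, the soluble lectin of the ER lumen, had 692, 655 and 690.2 FPKM with mimic, against 553, 570.4 and 575 FPKM with scramble. It had the highest level of the 40 in both groups, and its rise of 0.26 on the log2 scale (SE 0.044, adjusted p = 0.0030) left no overlap. CANX, its membrane-bound relative, averaged 123 ± 4.58 FPKM with mimic and 107 ± 6.08 with scramble (log2 fold change 0.20, adjusted p = 0.020), a call lost without mimic replicate 2 or scramble replicate 1. UGGT1, which puts glucose back on misfolded glycoproteins so that the lectins bind them again, fell. It had 5.89, 6.91 and 6.09 FPKM with mimic, against 11.0, 11.2 and 9.72 FPKM with scramble. The groups were well separated, the mean with mimic being 0.591 of that with scramble (log2 fold change -0.68, SE 0.072, adjusted p = 0.00039).

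Among the 10 disulfide isomerases and thioredoxin-fold proteins 4 rose, 2 fell and 4 did not pass. Over all tested genes 18.7% rose and 16.8% fell. PDIA5, an isomerase, rose the most of the 40. Its gene (ENSG00000065485, chromosome 3, 123067062 to 123225227, plus strand) had 45.2, 42.5 and 44.4 FPKM with mimic, against 24.8, 25.6 and 25.5 FPKM with scramble. The scramble libraries were nearly equal and lay far below the mimic libraries, a ratio of 1.74 (log2 fold change 0.78, SE 0.038, adjusted p = 1.7e-05). SEC22A, annotated on the same strand with shared exon positions, measured 2.20 ± 0.178 FPKM with mimic and 2.003 ± 0.0988 with scramble.

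PDIA4, the isomerase with the highest FPKM in both groups, was lower with mimic. It had 184, 189.6 and 191 FPKM with mimic, against 219, 221 and 216 FPKM with scramble, a small difference beside an even smaller spread (log2 fold change -0.21, SE 0.036, adjusted p = 0.0029). PDIA3, which works on glycoproteins held by CALR and CANX, rose by 0.20 (adjusted p = 0.0037), ERP44, which retains unassembled proteins, by 0.19 (adjusted p = 0.011) and PDIA6 by 0.13 (adjusted p = 0.038). PDIA3 has a processed copy, PDIA3P1, at 11.2 FPKM with mimic and 9.88 with scramble, so its value is uncertain. PDIA6 lost its call when any library other than scramble replicate 2 was left out. P4HB, the classical isomerase and also a subunit of collagen prolyl hydroxylase, measured 95.2 ± 1.12 FPKM with mimic and 90.7 ± 2.14 with scramble (adjusted p = 0.17). TXNDC12 (-0.03), TXNDC11 (-0.09) and TXNDC5 (0.10) did not pass, and TXNDC5 shares exons with a readthrough gene, which makes its low value of 0.614 FPKM with mimic and 0.4997 with scramble uncertain.

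The summed level of the family was slightly lower with mimic, without overlap between the groups, and its makeup changed. Over the 10 genes the sum stood at 538 ± 2.88 FPKM (536 to 542) with mimic and 561 ± 5.34 (556 to 567) with scramble. ERP29 made up 3.10% of that sum with mimic and 8.52% with scramble, while PDIA5 made up 8.18% with mimic and 4.51% with scramble. PDIA4, the largest part, made up 34.98% with mimic and 38.99% with scramble. By level ERP29 was number 7 of the 10 with mimic and number 5 with scramble, and PDIA5 was number 5 with mimic and number 7 with scramble. Over all 40 genes the sum was 2363 ± 34.5 FPKM with mimic and 2032 ± 16.3 with scramble, and HSPA5 alone accounted for 24.4% of it with mimic and 18.1% with scramble. The oxidase ERO1A, which reoxidizes the isomerases, measured 27.8 ± 0.577 FPKM with mimic and 26.2 ± 1.52 with scramble (adjusted p = 0.21).

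**Figure D4:**
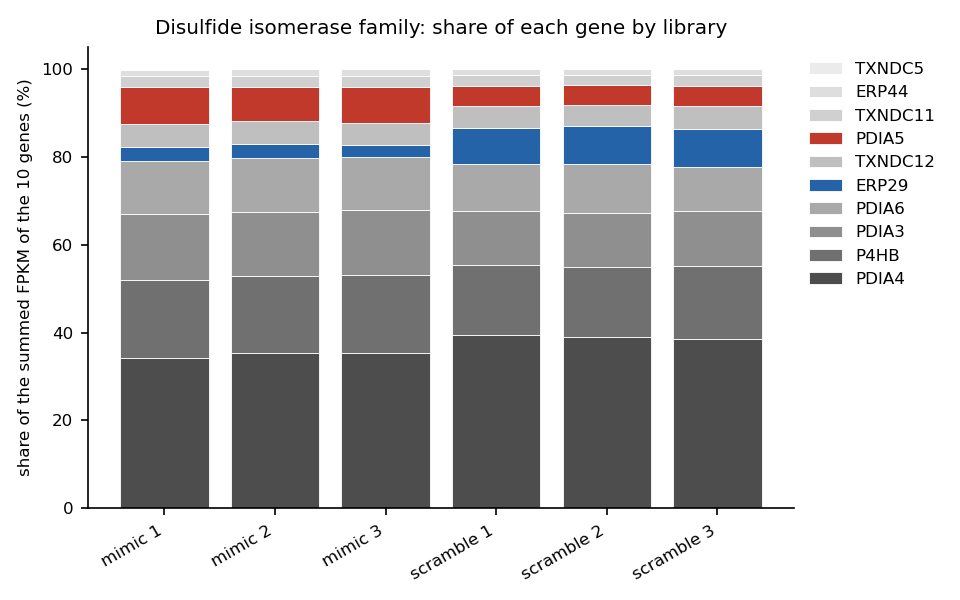
Share of each gene in the summed FPKM of the 10 disulfide isomerases and thioredoxin-fold proteins (vertical axis, percent) in each library, mimic at left and scramble at right, with PDIA5 in red and ERP29 in blue. The blue band is 3.10% with mimic and 8.52% with scramble on average, and the red band 8.18% with mimic and 4.51% with scramble.

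Of 8 tested genes of ER-associated degradation 2 rose and 1 fell, close to the shares over all genes. HERPUD1, which assembles the degradation complex at the membrane, rose to 16.5 ± 0.517 FPKM with mimic, against 13.7 ± 0.261 with scramble (log2 fold change 0.25, adjusted p = 0.0027). DERL2, a channel-forming protein for export to the cytosol, rose by 0.24 (adjusted p = 0.013). EDEM3, which trims mannose from proteins to be degraded, had 2.61, 2.84 and 2.33 FPKM with mimic, against 3.64, 3.62 and 3.18 FPKM with scramble. These are low levels, and the groups did not overlap (log2 fold change -0.32, SE 0.072, adjusted p = 0.011). The ubiquitin ligase SYVN1 (0.09), its partner SEL1L (-0.10), EDEM1 (-0.02), EDEM2 (0.05) and DERL1 (0.04) did not pass.

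The sensors and the factor XBP1 showed no common direction. XBP1, the transcription factor made active when ERN1 splices its mRNA, had 21.8, 21.0 and 22.8 FPKM with mimic, against 24.95, 25.8 and 28.1 FPKM with scramble. It fell with no overlap (log2 fold change -0.25, SE 0.054, adjusted p = 0.0086), and the table, which gives 1 value per gene, does not show how much of it was spliced. ERN1, its splicing enzyme, had 1.69, 1.88 and 1.66 FPKM with mimic, against 2.06, 2.004 and 1.75 FPKM with scramble, and the groups overlapped (log2 fold change -0.10, adjusted p = 0.29). ATF6, a membrane-held transcription factor released by cleavage, had 14.2, 14.8 and 14.3 FPKM with mimic, against 14.1, 14.4 and 14.1 FPKM with scramble, also with overlap (0.02, adjusted p = 0.72). EIF2AK3, the kinase PERK, had 1.43, 1.55 and 1.49 FPKM with mimic, against 1.11, 1.25 and 1.06 FPKM with scramble. It rose by 0.22 (SE 0.063, adjusted p = 0.030; 0.38 with a smaller pseudocount), a call that was lost when any library other than scramble replicate 2 was left out (adjusted p up to 0.089).

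Other genes of the pathway were read from lists outside the 40. Over all tested genes 16.8% fell and 18.7% rose. In the arm downstream of EIF2AK3, 8 of 13 tested genes (61.5%) fell and 2 (15.4%) rose, with a median log2 fold change of -0.25. ATF5, a transcription factor of that arm, fell by 0.67 on the log2 scale to 11.7 ± 0.29 FPKM with mimic, against 19.1 ± 0.466 with scramble, and SESN2, a stress-induced inhibitor of growth signalling, rose by 0.34. ATF4, the central factor of the arm, named after its values were seen, was at 94.9 ± 3.09 FPKM with mimic and 129.5 ± 3.76 with scramble (log2 fold change -0.44, adjusted p = 0.00021). Most tested genes of the arm were thus lower with mimic, while the kinase itself was at 1.49 FPKM with mimic and 1.14 with scramble. Whether these genes changed through the kinase was not tested.

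Prolyl isomerases and collagen-folding genes leaned to higher values. Of 21 tested 11 rose (52.4%) and 2 fell (9.52%), with a median of 0.18, where 18.7% of all tested genes rose and 16.8% fell. SERPINH1, the collagen chaperone HSP47, rose to 160.4 ± 3.78 FPKM with mimic, against 108 ± 2.24 with scramble (log2 fold change 0.57, adjusted p = 4.5e-05), and P3H2, a collagen prolyl hydroxylase, fell by 0.53 on the log2 scale. The summed level of 8 fibroblast markers was 6.57 to 7.09 FPKM with mimic and 4.68 to 5.01 FPKM with scramble. Most of it was THY1, which rose to 5.41 ± 0.214 FPKM with mimic, against 4.17 ± 0.258 with scramble. Of the 8 genes, 6 stayed under 0.5 FPKM in every library. COL1A1 (1.33) and PDGFRB (1.25), both among those low genes, are in the authors' deposited table. The part of these markers in the result was not tested. Disulfide isomerases and oxidases outside the 40 had 3 of 14 higher and 5 lower. SELENOF, a small selenoprotein that binds UGGT1, fell to 35.9 ± 1.05 FPKM with mimic, against 79.1 ± 4.73 with scramble (log2 fold change -1.12, adjusted p = 1.2e-05; -1.15 in the authors' deposited table). UGGT1 and SELENOF were thus both lower with mimic, while the lectins CALR and CANX were higher. SELENOM, another selenoprotein of the ER, rose by 0.61.

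In the remaining lists 12% to 31.6% of the tested genes rose and 5.26% to 29.4% fell, where 18.7% and 16.8% of all tested genes did. In the translocon and signal peptidase list 3 of 25 rose and 2 fell, with SRPRA up by 0.30 and SRPRB down (-0.52), the 2 subunits of the receptor that docks ribosomes at the ER. In N-glycosylation 6 of 29 rose, led by ALG9 (0.29), and 3 fell, led by DDOST (-0.28). ALG9 no longer passed when mimic replicate 2, mimic replicate 3 or scramble replicate 2 was left out, and its log2 fold change reached 0.50 with a smaller pseudocount. Of 25 other degradation factors 4 rose, led by the ubiquitin ligase RNF139 (0.42), and 5 fell, led by UBE2J2 (-0.27), a ubiquitin-conjugating enzyme. ER calcium genes had 4 of 13 higher, led by the pump ATP2A3 (0.44), and 3 lower, led by the channel protein TMCO1 (-0.74). ATP2A3 was at 1.16 ± 0.0586 FPKM with mimic and 0.588 ± 0.06 with scramble, a ratio of 1.97; at such levels the pseudocount of 1 lowers the log2 fold change, which reached 0.97 with a smaller one. In the list of other chaperones 5 of 19 tested genes rose, led by TAPBP (0.37). BAG6 fell (-0.12), a call that was lost whichever library was left out (adjusted p up to 0.088). ER export genes had 6 of 19 higher, led by SEC23A (0.49), and 4 lower, led by SEC31A (-0.55), both of the vesicle coat. Among 17 other transducers of ER stress 5 rose, led by BAK1 (0.66), and 5 fell, led by NFYA (-0.50), and CREB3L3, under the filter here, stood at 1.40 in the authors' deposited table.

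**Figure D5:**
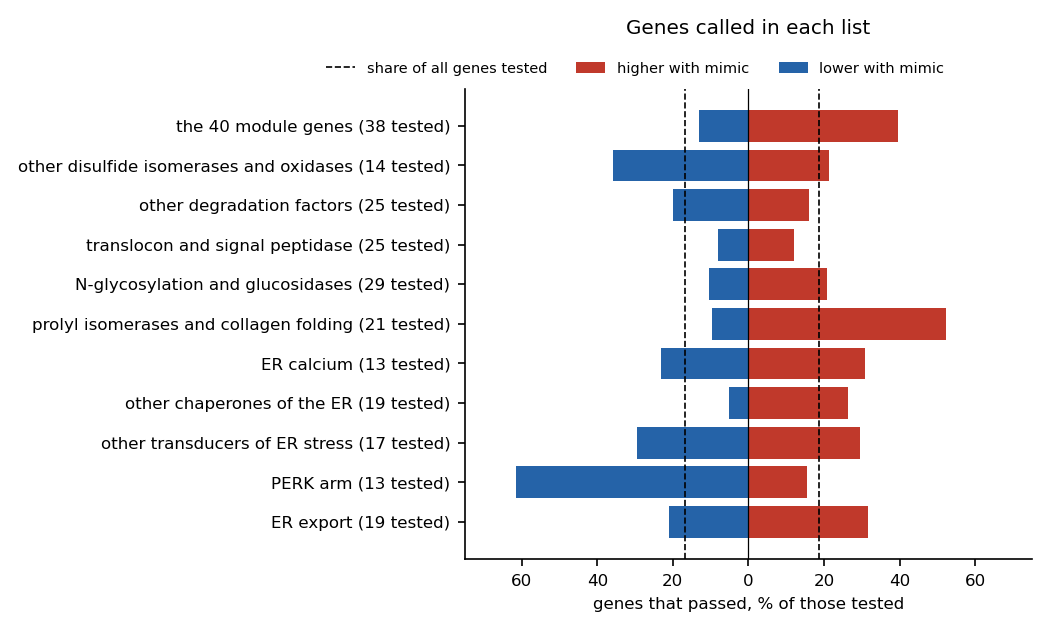
Genes that passed the test, in percent of those tested in each list (horizontal axis), higher with mimic to the right in red and lower to the left in blue; dashed lines give the shares over all tested genes, 18.7% higher and 16.8% lower. Most lists pass one of the lines, 8 of the 11 the right line and 6 the left line. Over genes that averaged 5 FPKM or more the shares are 23.1% higher and 22.1% lower, which fewer lists pass. The longest bars are the collagen-folding list to the right (52.4%) and the PERK arm to the left (61.5%), and the 40 genes reach 39.5% to the right.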

How the data were processed

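Reads were processed with Trimmomatic 0.39 and HISAT2 2.1.0 on GRCh38, per the submitters' processing notes, which also list DESeq2 1.26.0 and, for counting, featureCounts 2.0.1. Not given in the sources used here: gene annotation, counting settings, strandedness, and how FPKM were computed. The authors deposited FPKM for 58051 genes in 6 libraries (0 columns of other samples), of which 57447 matched GENCODE 29 by identifier. The authors' deposited comparison table holds, per the file headers, a mean signal of normalized counts, log2 fold changes with standard errors, a test score and p-values. The score had the opposite sign of the fold change in all 401 genes, and the sign of the fold change, which followed mimic minus scramble FPKM in all 401, was used.

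Of each library's low values, 95.6% to 95.9% were whole reads (tolerance 0.02) after multiplication by the union exon length, which gave the depths. An exon length of 1 kb with 10 reads corresponds to 0.159 to 0.208 FPKM. Differences were tested in R 4.3.3 by limma 3.58.1 on log2(FPKM + 1), using a trended prior variance and no covariate. The added 1 understates changes of low genes. The model was also run on normal values simulated with its own fitted variances. That run cannot show how well the model suits these FPKM. Permutation tests used scipy 1.17.1. Without stated strand use, 22 of the 40 genes share exon positions with a gene on the opposite strand and 6 with one on the same strand, which makes their values less certain. Members and lists were chosen with earlier results of these data known. HSPA5, ERP29, the 6 called members that rose most, all that fell and the sensors are given library by library; of other lists the called genes with the largest rise and fall are named. Alternatives covered pseudocount, filter, scaling, variance model, replicate block, each library left out, and voom on recovered reads.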

Additional observations from a re-analysis of the deposited data

How the results depend on the processing

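The count of members that rose was 15 and lay between 10 (no filter on low values) and 15 under the 18 alternatives; with 1 library left out it was 11 to 14. The count that fell was 5 under all of them but a filter of 5 FPKM, which removes EDEM3 and gave 4. Over all genes 3290 to 5046 passed, against 4584, and leaving out 1 library gave 3387 to 3998. Of the 20 called members 15 kept their call in every alternative that tested them; SDF2, CRELD2, CANX, PDIA6 and EIF2AK3 lost it in some, all 5 among them with no filter on low values. HSPA5 stayed between 0.62 and 0.68 on the log2 scale, PDIA5 between 0.76 and 0.82, UGGT1 between -0.77 and -0.63 and ERP29 between -1.53 and -1.41, all past the threshold. The HSPA5 to ERP29 log2 difference was 2.16 and 2.17 with smaller pseudocounts and 2.08 to 2.17 with a library left out.

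Signs changed only in genes near 0 that never passed. MANF was at 0.0075 on the TPM scale and at 0.0105 after quantile normalization, where EDEM1 was at 0.000303. With 1 library left out MANF ranged between -0.0856 and 0.0343, EDEM1 between -0.085 and 0.0146, HYOU1 between -0.0108 and 0.077 and DNAJC10 between -0.0021 and 0.056. The cause was not tested.

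Replicate numbers are shared between the groups. Deviations from the group mean correlated at -0.062, 0.24 and 0.054 for same-numbered libraries 1 to 3. Libraries of different numbers correlated at -0.27 to 0.23. With 3 libraries in a group these values cannot decide whether same-numbered libraries were paired. With the replicate block 4609 genes passed, 15 members rose and 5 fell, and the HSPA5 to ERP29 difference was 2.11 (exact sign-flip p = 0.25, the smallest that 3 pairs allow). Of the 20 named genes outside the 40, 17 kept their call; BAG6, ALG9 and UBE2J2 lost it in some alternatives, UBE2J2 only with no filter on low values. ERO1B and DERL3 were left out by the filter of 0.5 FPKM.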
